A study of Mus musculus with 8 samples.

Results

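The E2F transcription factors and the pocket proteins that bind them were examined in ventricular tissue of mouse embryos. The 10 genes E2f1, E2f2, E2f3, E2f4, E2f5, E2f7, E2f8, Rb1, Rbl1 and Rbl2 were taken by symbol on the primary chromosomes from a table of 52778 rows. Each of the 10 stood on 1 row, and all 10 passed the filter on low values (a mean of at least 1 TPM, a transcript level normalised for gene length and library total) that left 15541 rows for testing. The ventricles were collected at embryonic day 11.5 in 2 groups of 4 libraries. The labels do not fully match on the tissue: the sample titles name it only as heart, and an extraction text speaks of cortical neurons. In the group called cKO, floxed Rps19bp1 alleles (Rps19bp1 fl/fl) were deleted by 1 copy of Xmlc2-Cre, which the series text describes as acting in cardiomyocytes. The product of Rps19bp1 is a nucleolar partner of the ribosomal protein Rps19. The control group is labelled only as control, so whether it carried floxed alleles or Cre is not known from the labels, and the genotype field reads C57BL/6 WT for all 8 libraries. The tissue holds other cells beside cardiomyocytes, in which this Cre is not described as acting. Nothing in the labels says whether each library came from 1 embryo or from a pool. The labels speak of biological replicates without naming litters, and the p-values measure the spread between these libraries.

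E2F factors bind the promoters of genes needed for DNA synthesis and cell division. E2F1, E2F2 and E2F3 activate these genes and are held in check by the retinoblastoma protein Rb1 until cyclin-dependent kinases phosphorylate it. E2F4 and E2F5 act mainly as repressors together with the related pocket proteins Rbl1 and Rbl2, and with the MuvB proteins they form the DREAM complex, which keeps cell cycle genes silent in resting or arrested cells. E2F7 and E2F8 repress the same kind of promoter without a DP partner or a pocket protein. The inhibitor Cdkn1a, a target of p53, blocks the kinases that release E2F from pocket proteins. Several members, among them E2f1 and Rbl1, are themselves known E2F targets, so the family sits both upstream and downstream of its own activity. In the embryonic heart these genes are active while cardiomyocytes divide.

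The promoters of members were searched for the E2F letters TTTCCCGC, TTTCGCGC, TTTGCCGC and TTTGGCGC and for the letters TTTGAA and TTCGAA of the CHR, the element through which MuvB complexes bind. Both strands were read, and sites of different motifs were allowed to overlap. The windows run from 250 bases before to 50 bases after a transcript start and come from RefSeq on GRCm38.p6, where 7 of the 10 members were matched (E2f4, E2f5 and Rb1 were not). An E2F motif was present in 4 of the 7 matched genes and a CHR motif in 4. Over all 32851 windows of the table, 2.27% held an E2F motif and 19.2% a CHR motif. Counted per gene, as the members are, the shares were 4.77% and 16.5% of the 10908 tested genes with a window. The stretches below are shown because they hold those letters upstream of a start. Capitals mark the motifs, and each run reads 5′ to 3′ on the gene's strand.
E2f2, second start (chr4:136180721-136180781, plus strand): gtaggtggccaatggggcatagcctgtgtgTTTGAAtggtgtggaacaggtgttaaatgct
E2f3 (chr13:29986064-29986116, minus strand): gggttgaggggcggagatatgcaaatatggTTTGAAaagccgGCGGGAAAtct
E2f7 (chr10:110745211-110745278, plus strand): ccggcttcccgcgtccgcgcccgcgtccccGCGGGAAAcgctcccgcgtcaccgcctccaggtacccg
E2f8 (chr7:48881597-48881646, minus strand): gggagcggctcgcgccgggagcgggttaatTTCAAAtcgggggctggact
Rbl1 (chr2:157204535-157204582, minus strand): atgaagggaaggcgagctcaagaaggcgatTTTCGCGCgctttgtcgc
Rbl2 (chr8:91069826-91069891, plus strand): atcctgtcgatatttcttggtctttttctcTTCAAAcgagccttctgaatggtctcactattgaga

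The runs of E2f2, E2f3, E2f8 and Rbl1 end at the base before the start. The run of E2f7 ends 160 bases and that of Rbl2 165 bases before it. E2f3 had both kinds of motif within its last 23 bases, at the first of its 2 listed starts. In E2f2 an E2F motif began 40 bases after the first start, and a CHR motif began 31 bases before a second start that lies 8508 bases inside the gene. No motif letters were found in the E2f1 window, whose start lies 466 bases inside the row of the gene, as that of E2f8 lies 477 bases inside its own.

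The deletion and the kinase inhibitor were examined first. Rps19bp1 (chr15:80260614-80264306) stood at 39.9 ± 3.93 TPM in control and 14.96 ± 3.14 TPM in cKO (SD, n = 4 each), a log2 change of -1.37 (limma adjusted p = 0.000508). The remaining 37.5% cannot be divided here between cells outside the reach of Cre, undeleted alleles and any other source. Cdkn1a (chr17:29090979-29100722) held 24.9 to 33.1 TPM in control and 137 to 198 TPM in cKO, a log2 change of 2.50 (limma adjusted p = 6.53e-06). A second row carries the Cdkn1a symbol, and the values are those of the row at these coordinates. Of the 15541 rows tested, 994 were called at a limma adjusted p under 0.05, which is 6.40% (4.23% lower and 2.16% higher in cKO). Other scalings moved the balance of these calls, from 33.8% higher on TPM as deposited to 50.2% after quantile normalization, 47.8% after median-ratio scaling and 50.1% when mitochondrial and globin genes were left out of the total. Mitochondrial rows took 11.4% to 12.2% of TPM in control libraries and 13.2% to 16.2% in cKO libraries. In bulk tissue, fewer cells of a type and less RNA per cell cannot be told apart.

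Among the 10 members, E2f1 and E2f8 fell in cKO, and 0 rose. The share called lower was thus 2 of 10, against 4.23% of all rows tested. The fitted change was below 0 for 8 members, and the median over the 10 was -0.17 against -0.02 over all rows tested. In 5 of the 10 the groups did not overlap (E2f1, E2f2, E2f4, E2f5 and E2f8), as in 15.6% of all rows tested. The members are described below by role.

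**Figure D1:**
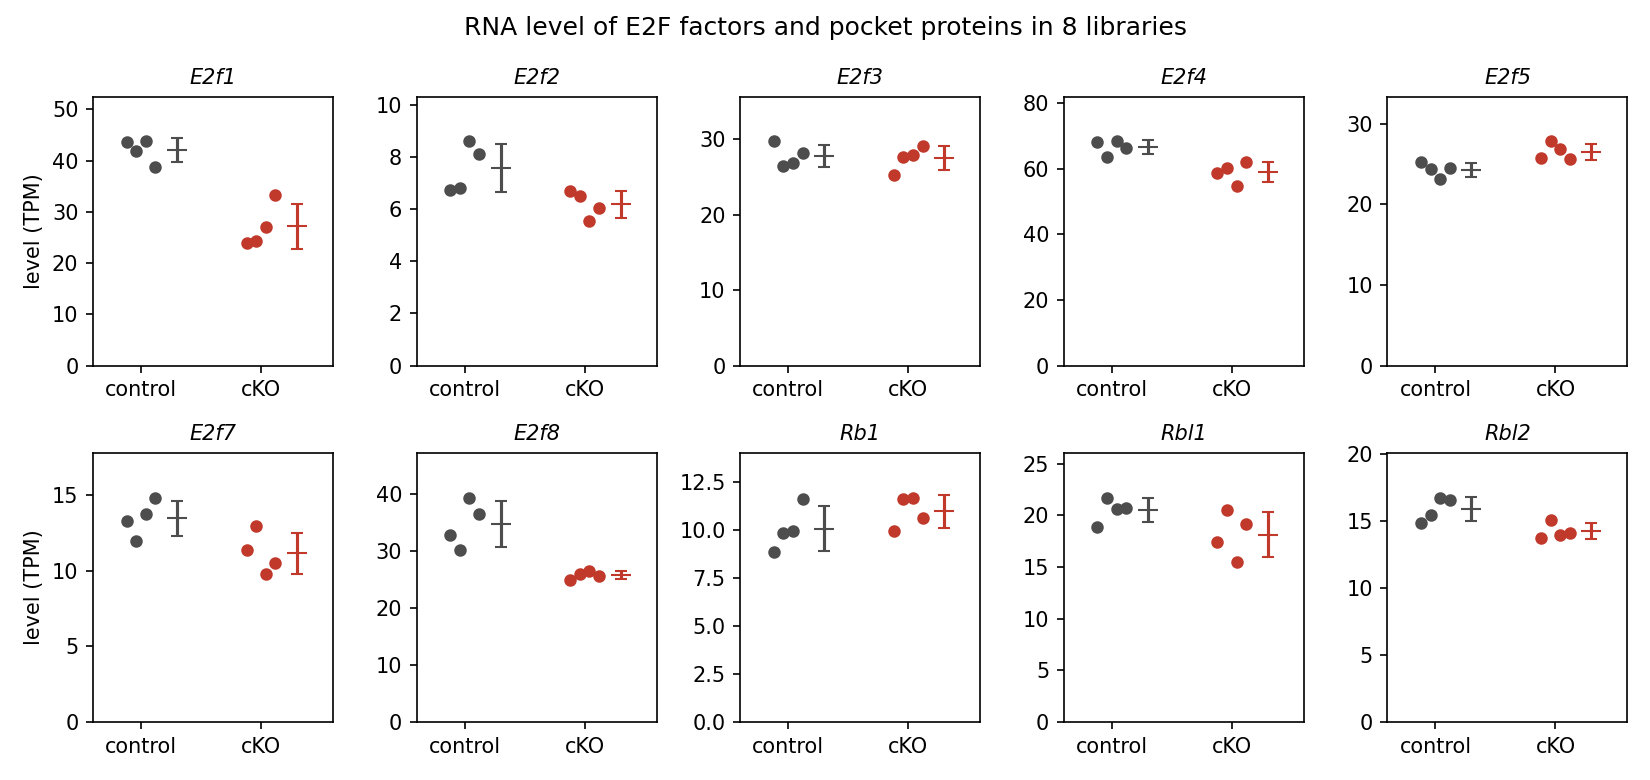
RNA level in TPM (vertical axes, from 0) of each of the 10 members in the 4 control libraries (grey points) and 4 cKO libraries (red points), with the group mean and SD to the right of each set of points. E2f1 and E2f8 show the widest gap between groups, while E2f3, E2f7, Rb1, Rbl1 and Rbl2 overlap.

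E2f1 is the activator best known for driving entry into S phase. E2f1 (chr2:154559400-154569892, minus strand) stood at 43.7, 41.95, 43.8 and 38.8 TPM in control libraries 1 to 4 and at 23.95, 24.4, 27.05 and 33.3 TPM in cKO libraries 1 to 4. Every cKO library lay below every control library, and cKO library 4 was nearest to the controls. The mean went from 42.06 ± 2.31 to 27.2 ± 4.32 TPM (SD, n = 4), so that cKO held 64.6% of the control level. The log2 change was -0.62 (SE 0.0957, 95% confidence interval -0.84 to -0.41, limma adjusted p = 0.00772), and 64 of the 15541 rows had a lower fitted change. Library 4 of the cKO group also had the highest Rps19bp1 level of its group (19.2 TPM, against 11.8 to 15.2 TPM in the other 3) and the lowest Cdkn1a level (137 TPM, against 171 to 198 TPM). This is 1 library seen after the fact, and a link between these levels was not tested. E2f8 in the same library (25.6 TPM) lay inside the range of its group (24.9 to 26.5 TPM). Without cKO library 4 the log2 change of E2f1 was -0.72. E2f1 stayed past the threshold under all 18 alternative settings, with limma adjusted p from 0.00091 to 0.0435.

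E2f2 was the least abundant member in both groups. Its control libraries held 6.75, 6.82, 8.60 and 8.10 TPM and its cKO libraries 6.69, 6.50, 5.53 and 6.04 TPM. The groups did not overlap, but the gap between the highest cKO and the lowest control library was narrow. The log2 change of -0.25 (95% confidence interval -0.46 to -0.04) was not past the threshold (limma adjusted p = 0.141).

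E2f3, the third activator, is made from 2 starts as RefSeq lists it, which the table does not separate. Its libraries held 29.7, 26.4, 26.8 and 28.1 TPM in control and 25.3, 27.7, 27.8 and 29.1 TPM in cKO. The groups were interleaved. The log2 change was -0.01 (95% confidence interval -0.15 to 0.12, limma adjusted p = 0.916). Under the 3 rescalings its sign turned, to between 0.01 and 0.02.

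E2f4, the main repressor E2F of the DREAM complex, was the most abundant member. It stood at 67.97, 63.5, 68.3 and 66.3 TPM in control and at 58.8, 60.2, 54.7 and 62.03 TPM in cKO. All 4 cKO libraries were below all 4 control libraries, by a small margin. The log2 change of -0.17 (SE 0.0508, 95% confidence interval -0.29 to -0.06) was not past the threshold (limma adjusted p = 0.0747), although its unadjusted p was 0.00671. Its adjusted p stayed above the threshold under all 18 alternatives, from 0.0619 to 0.173.

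E2f5, the second repressor of this kind, went the other way. It stood at 25.2, 24.4, 23.1 and 24.5 TPM in control and at 25.8, 27.8, 26.8 and 25.6 TPM in cKO. The cKO libraries all lay above the control libraries, with 25.6 TPM the lowest cKO value and 25.2 TPM the highest control value. The log2 change of 0.12 (95% confidence interval 0.01 to 0.23) was not past the threshold (limma adjusted p = 0.183). The end of its row overlaps by 21 bases that of Rbis on the opposite strand, which was more abundant (99.1 TPM in control and 111 TPM in cKO), and whether reads were counted by strand is not given in the sources used here.

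E2f8 is one of the atypical E2Fs, which carry a pair of DNA-binding domains in 1 protein and repress E2F targets during S phase. E2f8 (chr7:48866429-48882073, minus strand) stood at 32.8, 30.2, 39.4 and 36.5 TPM in control and at 24.9, 26.02, 26.5 and 25.6 TPM in cKO. The control libraries were spread, the cKO libraries were tight, and the groups did not overlap. The mean went from 34.7 ± 4.05 to 25.8 ± 0.696 TPM (SD, n = 4), and cKO held 74.2% of the control level. The log2 change was -0.41 (SE 0.0767, 95% confidence interval -0.58 to -0.24, limma adjusted p = 0.0165), with a lower change in 1.91% of rows tested. Without cKO library 1 the change was -0.39 and its limma adjusted p 0.0501, and with no filter on low values, which raised the number of rows tested to 32491, the adjusted p was 0.0607.

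E2f7, its partner in structure and function, was less abundant. It stood at 13.3, 11.98, 13.7 and 14.8 TPM in control and at 11.4, 12.9, 9.80 and 10.5 TPM in cKO. Library 2 of the cKO group lay inside the control range, and the other 3 lay below it. The log2 change of -0.25 (95% confidence interval -0.46 to -0.05) was not past the threshold (limma adjusted p = 0.126).

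Rb1, the pocket protein that binds the activator E2Fs, had a fitted change above 0. Rb1 (chr14:73192858-73325951, minus strand) stood at 8.83, 9.87, 9.97 and 11.6 TPM in control and at 9.92, 11.6, 11.7 and 10.6 TPM in cKO. The groups overlapped over most of their range. The log2 change was 0.11 (95% confidence interval -0.08 to 0.31, limma adjusted p = 0.470). Lpar6, which lies inside the Rb1 row on the opposite strand, stood at 11.3 TPM in control and 13.7 TPM in cKO (log2 change 0.26, limma adjusted p = 0.0776), and how reads of the shared stretch were assigned is not known. Of the other members, E2f1, E2f7 and E2f8 overlap rows with a mean under 1 TPM, Rbl1 overlaps Gm14277 (3.38 TPM in control), and E2f2, E2f3 and E2f4 overlap none.

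Rbl1 (also named p107), the pocket protein whose RNA accompanies proliferation, stood at 18.9, 21.7, 20.6 and 20.7 TPM in control and at 17.4, 20.6, 15.5 and 19.1 TPM in cKO. Libraries 1 and 3 of the cKO group were below the control range and the other pair was inside it. The log2 change of -0.17 (95% confidence interval -0.36 to 0.01) was not past the threshold (limma adjusted p = 0.246). Rbl2 (also named p130), the pocket protein of resting cells, stood at 14.9, 15.5, 16.8 and 16.6 TPM in control and at 13.7, 15.1, 13.97 and 14.1 TPM in cKO. Only cKO library 2 reached into the control range. The log2 change of -0.15 (95% confidence interval -0.28 to -0.02) was not past the threshold (limma adjusted p = 0.163). The Rbl2 row overlaps that of Aktip on the opposite strand, whose log2 change was -0.06 (limma adjusted p = 0.621).

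**Figure D2:**
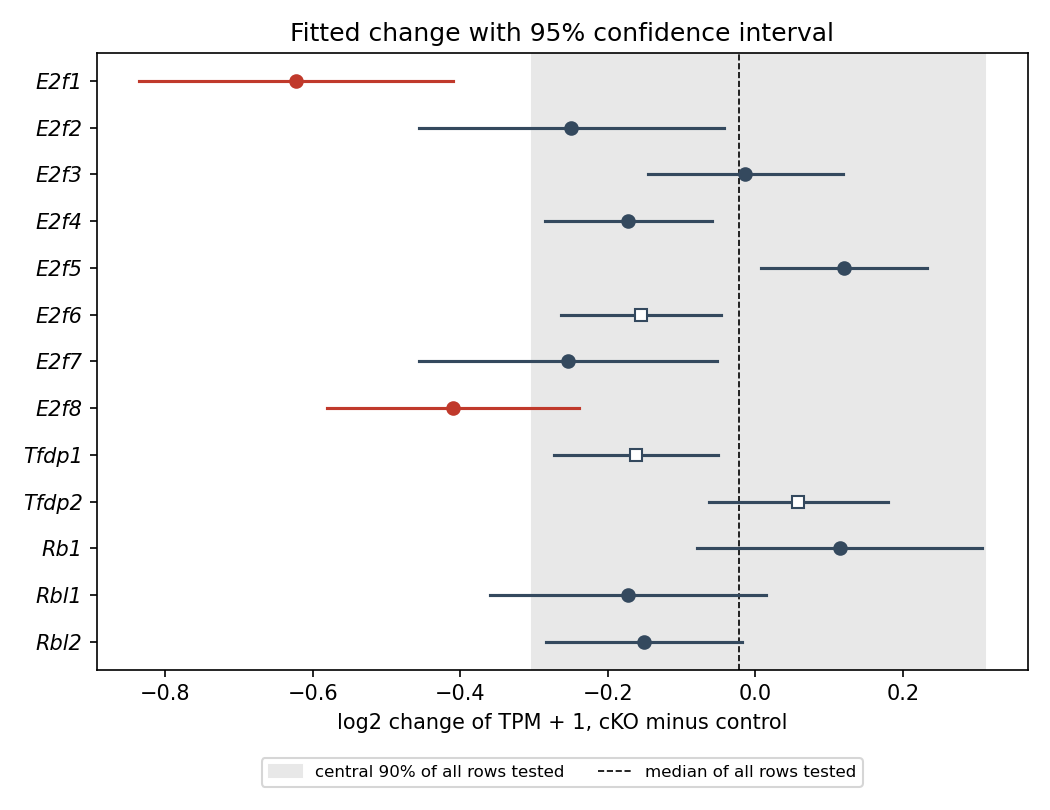
Fitted log2 change of TPM + 1 (horizontal axis, cKO minus control) with its 95% confidence interval for the 10 members (circles) and for E2f6, Tfdp1 and Tfdp2 (squares). Red marks a limma adjusted p under 0.05, the grey band holds the central 90% of all rows tested (-0.30 to 0.31) and the dashed line is their median (-0.02). The points of E2f1 and E2f8 lie beyond the band, and that of E2f3 lies next to the median.

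TPM is corrected for length, so levels can be ordered between genes. In control the order was E2f4 (66.5 TPM), E2f1 (42.06 TPM), E2f8 (34.7 TPM), E2f3 (27.8 TPM), E2f5 (24.3 TPM), Rbl1 (20.5 TPM), Rbl2 (15.9 TPM), E2f7 (13.5 TPM), Rb1 (10.1 TPM) and E2f2 (7.57 TPM). E2f1 and E2f8 were the 1 pair of neighbours in that order whose control libraries overlapped. In cKO, E2f4 again came first (58.9 TPM). After it E2f3 (27.5 TPM), E2f1 (27.2 TPM), E2f5 (26.5 TPM) and E2f8 (25.8 TPM) formed a run in which each overlapped the next, and Rbl1 (18.1 TPM) and Rbl2 (14.2 TPM) followed. E2f7 (11.1 TPM) overlapped Rb1 (10.97 TPM), and E2f2 (6.19 TPM) was last.

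The 7 E2F members together held 205 to 224 TPM in control libraries and 177 to 192 TPM in cKO libraries. E2f1 made up 17.9% to 20.5% of that sum in control and 13.1% to 17.3% in cKO. The share of the repressors E2f4 and E2f5 together was 40.9% to 42.8% in control and 45.6% to 47.9% in cKO, without overlap. Taken singly, E2f4 overlapped (30.51% to 30.97% in control and 30.69% to 33.25% in cKO). E2f5 did not (10.35% to 11.89% and 13.34% to 15.05%). The activator E2f3 also had a higher share in cKO without overlap (11.99% to 13.54% and 14.32% to 15.61%). A share also depends on the other parts of the sum, and a higher share is not a higher level. The mean of E2f4 went from 66.5 TPM in control to 58.9 TPM in cKO, and that of E2f5 from 24.3 to 26.5 TPM. The activators E2f1, E2f2 and E2f3 together held 34.6% to 36.6% in control and 31.6% to 35.6% in cKO, and the atypical E2f7 and E2f8 20.5% to 23.7% and 18.8% to 20.99%, in both cases with overlap. Among the pocket proteins, Rb1 made up 20.7% to 23.8% of the summed level of the 3 genes in control and 24.2% to 28.4% in cKO. Rbl1 was the largest part in every library, at 42.3% to 46.2% in control and 37.6% to 43.6% in cKO. These sums totalled 42.6 to 48.95 TPM in control and 41.07 to 47.2 TPM in cKO.

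**Figure D3:**
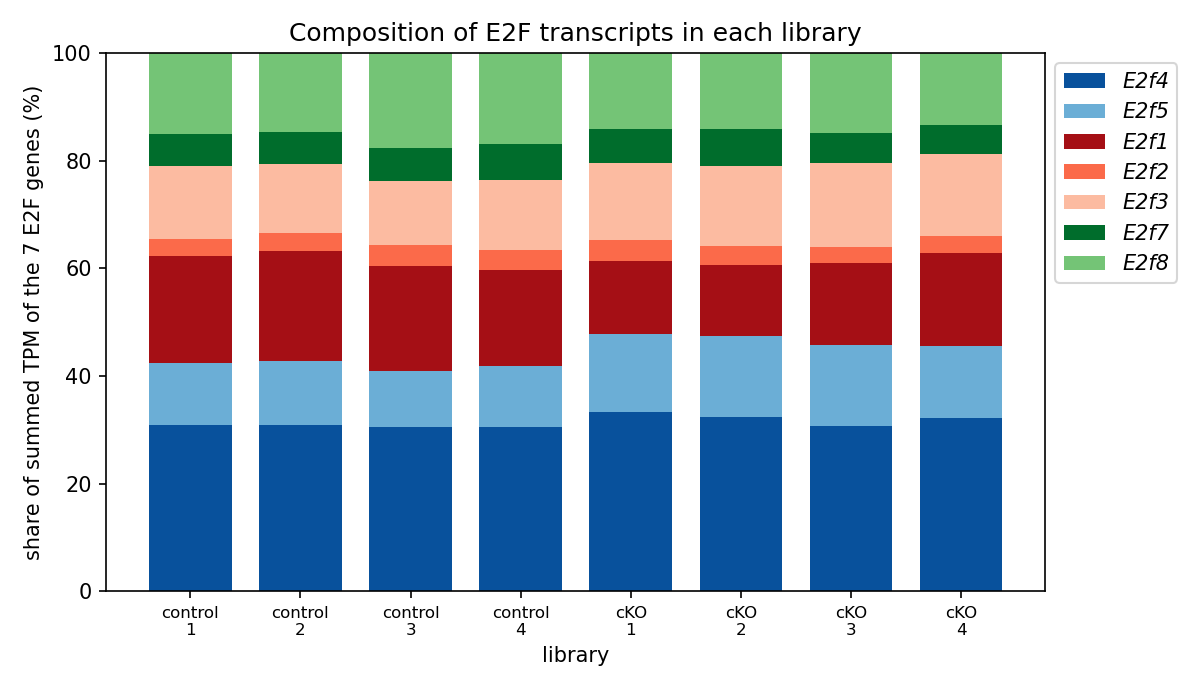
Share (vertical axis, percent) of each E2F member in the summed TPM of the 7 E2F genes, for each of the 8 libraries (horizontal axis). The 2 blue parts (E2f4 and E2f5) reach 40.9% to 42.8% in control libraries and 45.6% to 47.9% in cKO libraries, while the dark red part (E2f1) is 17.9% to 20.5% and 13.1% to 17.3%. The palest red part (E2f3) is 11.99% to 13.54% and 14.32% to 15.61%.

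A ratio between 2 genes within a library does not depend on how the library was scaled, and 7 such ratios were compared. The smallest p that the exact two-sided permutation test of 4 against 4 libraries allows is 0.0286. The ratio of E2f1 to E2f4 was 0.643, 0.661, 0.641 and 0.586 in control and 0.407, 0.405, 0.494 and 0.537 in cKO. It was lower in every cKO library than in every control library, by 0.47 on average on the log2 scale (exact permutation p = 0.0286, adjusted over 7 ratios 0.1). The ratio of E2f1 to Rb1, of an activator to its inhibitor, was 4.95, 4.25, 4.39 and 3.34 in control and 2.41, 2.1, 2.32 and 3.13 in cKO. These groups did not overlap either (log2 difference -0.77, exact permutation p = 0.0286, adjusted 0.1). Neither ratio passed after adjustment, nor did the other 5. With only these 2 of the 7 ratios at the smallest possible p, their adjusted value could not be lower than 0.1. The ratio of Rbl1 to Rb1 had a log2 difference of -0.31 (adjusted exact permutation p = 0.133), E2f8 to E2f4 -0.25 (0.15), E2f2 to E2f3 -0.27 (0.2), E2f7 to E2f4 -0.10 (0.367) and Rbl1 to Rbl2 -0.02 (0.743).

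**Figure D4:**
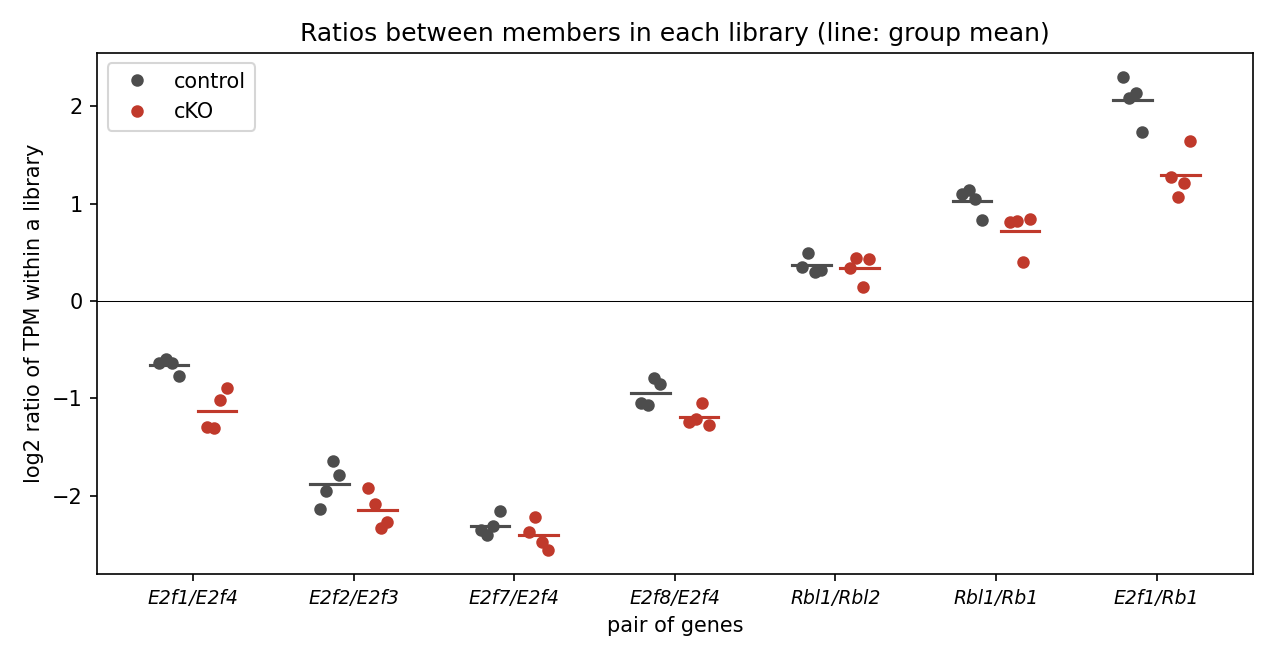
Log2 ratio of TPM between pairs of members (vertical axis) in each control (grey) and cKO (red) library, with group means as lines. The groups are apart for E2f1/E2f4 and E2f1/Rb1 and overlap for the other 5 pairs.

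Lists of other genes of the pathway were read from the same fit. The partners E2f6, a repressor that works without pocket proteins, and Tfdp1 and Tfdp2, the DP subunits that pair with E2F proteins, had 0 of 3 called. Over all rows tested 6.40% were called. E2f6 stood at 67.9 ± 2.12 TPM in control and 60.9 ± 3.01 TPM in cKO (SD, n = 4), with a fitted change of -0.16 and a limma adjusted p of 0.0885. Tfdp1 stood at 95.6 ± 3.03 and 85.4 ± 4.55 TPM (SD, n = 4), with a fitted change of -0.16 and a limma adjusted p of 0.0853. For both genes the groups did not overlap, as in 15.6% of all rows tested. Tfdp2 had a log2 change of 0.06.

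Of 8 genes for the MuvB core and the factors that switch it to activation, 2 fell, 0 rose and 6 were not called, with a median log2 change of -0.18 (over all rows tested 4.23% fell and 2.16% rose). The 2 were Mybl2 (log2 change -0.36, limma adjusted p = 0.0197) and Foxm1 (-0.29, limma adjusted p = 0.0398), the activators that join MuvB in S phase and in G2. Mybl1, a relative of Mybl2, was at a low level (2.67 TPM in control) and had a fitted change of 0.36, which did not pass (limma adjusted p = 0.0615). Over the alternatives the number of called members that fell ranged from 0 to 2.

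Of 13 tested G1 kinase genes and inhibitors (15 were listed, and Cdkn2a and Cdkn2b were too low to test), 3 fell, 2 rose and 8 were not called, against 4.23% lower and 2.16% higher over all rows tested. Cdk2 (log2 change -0.25, limma adjusted p = 0.0354), Ccne1 (-0.22, limma adjusted p = 0.0382) and Ccne2 (-0.38, limma adjusted p = 0.0498), which encode the kinase and the cyclins of S phase entry, fell. These 3 calls were sensitive, and from 0 to 3 were made over the alternatives. Cdkn1a rose, and so did the D-type cyclin Ccnd2, from 236 to 334 TPM (log2 change 0.50, limma adjusted p = 0.00129). Of 11 repressor partners, the deacetylases, Sin3 proteins, methyltransferases and others that pocket proteins or E2F6 recruit, 0 were called, and the median was -0.07. An unadjusted limma p under 0.05 was found for 5 of the 11, and for 3687 of the 15541 rows tested. The members with the smallest p were Pcgf6 (log2 change -0.21), Sin3a (-0.16) and Arid4a (-0.19), with limma adjusted p between 0.0699 and 0.0982.

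Genes that E2F factors switch on for S phase fell in large part. Of 37 tested, 23 fell (62.2%, against 4.23% of all rows tested), 0 rose and 14 were not called. This list and the mitotic list below were chosen with earlier results of these data known, so their counts are a description. All 37 had a fitted change below 0, with a median of -0.32 and a range of -0.61 to -0.11. Ung, a uracil-DNA glycosylase, went from 58.4 to 38.1 TPM (log2 change -0.61, limma adjusted p = 0.00128). Rrm2, a ribonucleotide reductase subunit, fell by 0.49 on the log2 scale (limma adjusted p = 0.00282) and Gins2, of the replicative helicase, fell by 0.42 (limma adjusted p = 0.00463). The fitted fall of E2f1 (-0.62) was thus of the size of the largest among these genes. The rows of Ung and Gins2 overlap those of Alkbh2 and Gse1, which were also present. The number called was 12 without control library 1, 13 without control library 3 and 10 with no filter on low values. Over all rows tested, 658 were called lower in the main fit and 229, 234 and 207 in these settings.

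Mitotic genes that the DREAM complex represses fell as well. Of 30 tested, 27 fell (90%, against 4.23% of all rows tested), 0 rose and 3 were not called, with a median log2 change of -0.36 and a range of -0.46 to -0.19. Mki67, the proliferation antigen, went from 122 to 91.98 TPM (log2 change -0.40, limma adjusted p = 0.00205). Ccnb2, a mitotic cyclin, had a log2 change of -0.43 and Cdca3, a mitotic entry factor, of -0.38, with limma adjusted p of 0.00281 and 0.00311. The number called was 17 without control library 1 and 13 with no filter on low values, where 229 and 207 of all rows tested were called lower. Of the death genes that E2F1 is known to activate, 1 is described here with no count for the list, and Trp73 was too low to test. Apaf1, the scaffold of the apoptosome and a known p53 target too, rose from 17.3 to 21.9 TPM (log2 change 0.32, limma adjusted p = 0.00923), and its row overlaps that of Ikbip.

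**Figure D5:**
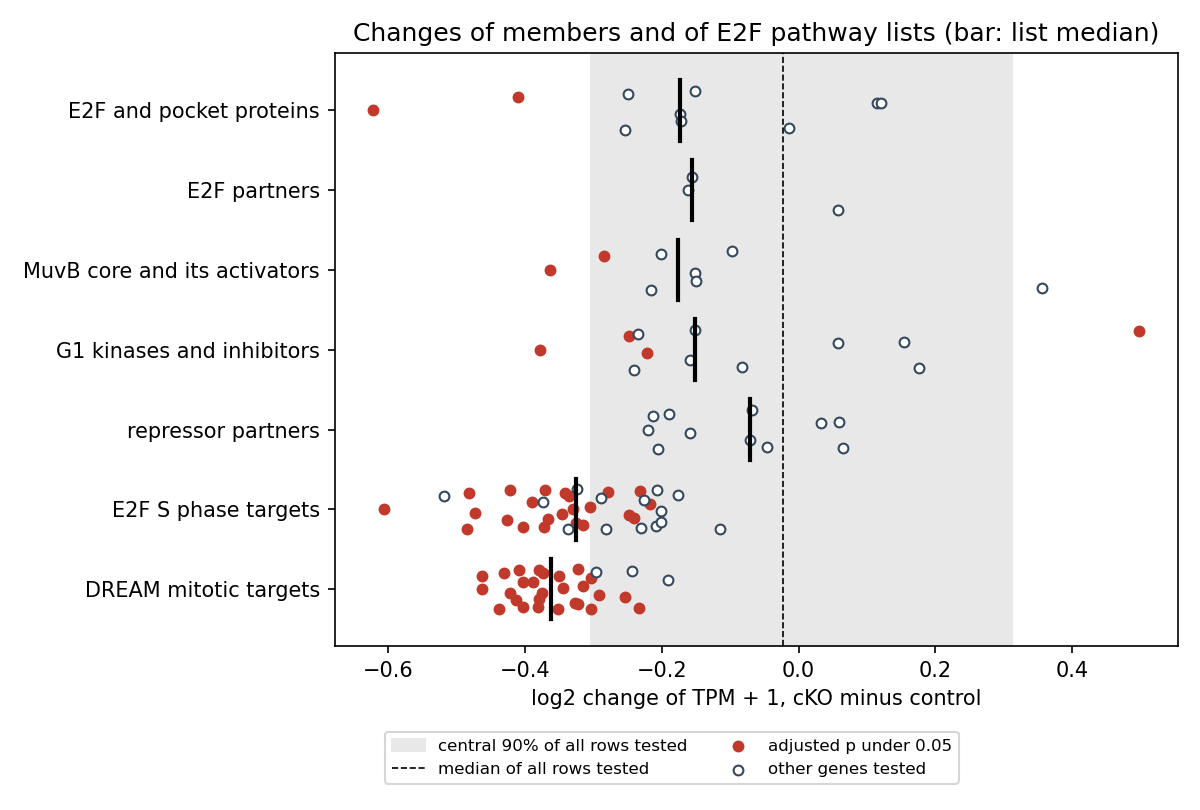
Log2 change of TPM + 1 (horizontal axis, cKO minus control) of each tested gene of the 10 members and of 6 pathway lists, with the list median as a black bar, the central 90% of all rows tested as a grey band (-0.30 to 0.31) and their median as a dashed line. Red marks a limma adjusted p under 0.05, and Cdkn1a (2.50) lies outside the plotted range. The S phase and mitotic targets lie to the left of 0 without exception, while the members and the partners straddle it.

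Promoters of these lists were read for the same letters, as a description with no test. An E2F motif was present in 14 of 29 S phase target genes with a promoter in the table (48.3%) and in 1 of 25 mitotic target genes (4%), against 4.77% of 10908 tested genes with a promoter. A CHR motif was present in 6 of 29 S phase targets (20.7%) and in 21 of 25 mitotic targets (84%), against 16.5% of the tested genes. Both lists were made of genes held to be E2F or DREAM targets, so high shares of these motifs may follow from that choice. Among the members with a motif, E2f2 and E2f3, each with both over their 2 starts, had log2 changes of -0.25 and -0.01, E2f7 (E2F motif) of -0.25, Rbl1 (E2F motif) of -0.17, E2f8 (CHR motif) of -0.41 and Rbl2 (CHR motif) of -0.15.

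The genes nearest in pattern to E2f1 and to Rbl1 were sought by the root-mean-square difference of their deviations from their own mean log2(TPM + 1) over the 8 libraries. These genes were picked for following E2f1 or Rbl1, so their changes are fixed in large part by that choice and are given as a description with no test. For E2f1, whose own deviation was 0.34, they were Rmi2 (difference 0.0456), Nsmce4a (0.0689) and Cenpv (0.0827). Rmi2, a subunit of the complex that dissolves recombination intermediates, stood at 9.14 TPM in control and 5.65 TPM in cKO (log2 change -0.62). Nsmce4a, of the Smc5/6 complex, had a log2 change of -0.51 and Cenpv of -0.62. For Rbl1, whose own deviation was 0.143, they were Dck (0.027), Hook1 (0.0475) and Dctpp1 (0.0488). Dck and Dctpp1 are enzymes of deoxynucleotide metabolism, and these 3 genes had log2 changes of -0.18, -0.19 and -0.21.

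Markers of the cell types in the ventricle were read beside these changes, and their part in the results was not tested. Cardiomyocyte genes were abundant in every library. The 16 markers summed to 58110 to 63000 TPM in control and 57630 to 60660 TPM in cKO. Of the 16, 1 was called, the cardiac transcription factor Nkx2-5, which fell (log2 change -0.48, limma adjusted p = 0.0453). The fitted change was below 0 for 13 of the 16 and above 0 for 3. Over all rows tested 4.23% fell and 2.16% rose. Of 7 epicardial markers 4 rose (Wt1, Tbx18, Tcf21 and Upk3b), with sums of 279 to 314 TPM in control and 339 to 435 TPM in cKO. Of 8 mesenchymal markers 4 rose (Col1a2, Col3a1, Dcn and Pdgfra), with sums of 551 to 695 TPM in control and 795 to 999 TPM in cKO. Of 8 endocardial and endothelial markers 0 were called, and their sums were 728 to 775 TPM in control and 778 to 882 TPM in cKO. The fitted change was above 0 for all 7 epicardial markers, all 8 mesenchymal markers and 7 of the 8 endocardial and endothelial markers. The 8 erythroid markers summed to 1747 to 6408 TPM in control and 1594 to 3410 TPM in cKO, and the 7 macrophage markers to 67.6 to 91.5 TPM and 74.1 to 120.4 TPM. Of the 8 erythroid markers and the 6 macrophage markers tested (Adgre1 was below the filter), 0 were called. The fitted change was below 0 for all 8 erythroid markers and above 0 for 5 of the 6 macrophage markers tested. Of 7 neuronal markers, which bear on an extraction text that speaks of cortical neurons, 6 were below the filter, and the summed level of the 7 was 4.88 to 13.4 TPM over the 8 libraries.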

How the data were processed

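RNA of 8 libraries (4 cKO, 4 control, 1 batch label) was compared. The values are TPM that the authors deposited, 1 column per library, each summing to 999999 or 1000000. Per the submitters' processing notes, FastQC, Trim Galore 0.6.7, HISAT2 2.2.1, StringTie 2.2.1, featureCounts, DESeq2 and the build GRCm38 were named, with no role or order, and the use of strand is not given in the sources used here. The texts in the labels contradict each other on library type (poly(A) mRNA or ribosomal RNA depletion). The series text names a nominal depth, but TPM keeps none, so depth per library stays unknown here and no counting error could be given. Of 49589 rows found in RefSeq by symbol and chromosome, 49588 had the same coordinates. TPM was analysed as log2(TPM + 1), a scale that understates the change of low genes, with limma 3.58.1 in R 4.3.3 (lmFit and eBayes with a trend, group as the only term, two-sided), with Benjamini-Hochberg adjustment over the 15541 rows whose mean reached 1 TPM. Single ratios were compared with exact two-sided permutation tests over 70 assignments (scipy 1.17.1). Named genes were the 10 members, Rps19bp1, Cdkn1a, the 3 genes with the smallest p of each pathway list and the 3 genes nearest in pattern to E2f1 and Rbl1, and other genes were named where a count was 5 or fewer, after their values were seen. The members and lists were chosen with earlier results of these data known. Some genes of 1 list are not reported here. The procedure was tested on simulated data. The alternatives were a pseudocount of 0.1 or 5, other filters, 3 rescalings, eBayes without a trend, array weights, a replicate block and leaving out each library.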

Additional observations from a re-analysis of the deposited data

How the results depend on the processing

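E2f1 kept its direction and its call under all 18 alternatives, and 9 of the 10 members kept their direction (E2f3 was the exception). The number of members called was 1 with no filter on low values, which tests more rows, and 1 to 2 when single libraries were left out. The number of genes called, 994, was 347 with no filter, 609 with eBayes without a trend, 420 with the replicate block and 390 to 938 when single libraries were left out. S phase targets called lower numbered 10 with no filter, 13 with the replicate block and 12 to 22 without single libraries, and mitotic targets 13 with no filter and 17 to 26 without single libraries. E2f3 changed sign after quantile normalization (0.0174), median-ratio scaling (0.0125) and leaving mitochondrial and globin genes out of the total (0.0204), and ranged from -0.0415 to 0.0235 without single libraries. The log2 difference of Rbl1/Rbl2 ranged from -0.056 to 0.0437 without single libraries. The cause of these changes was not tested. Ratios past the adjusted threshold numbered 0 in every setting, and 4 against 3 libraries or 4 pairs could not reach it. The replicate numbers did not pair the libraries: deviations of same-numbered libraries correlated at -0.089 to 0.067. With the replicate block the limma adjusted p was 0.0321 for E2f1 and 0.0348 for E2f8.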

Other observations

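The letters searched in promoters can be read over all tested genes as well, a reading chosen after the values were seen. Of 520 tested genes with an E2F motif in their promoter, 46 were called lower in cKO (8.85%) and 6 higher (1.15%), with a median log2 change of -0.08. Of 1797 genes with a CHR motif, 122 were called lower (6.79%) and 42 higher (2.34%), with a median of -0.03. Of the 96 genes with both, 12 were called lower (12.5%) and 0 higher. Among the 8687 genes with neither, 345 were called lower (3.97%) and 198 higher (2.28%), with a median of -0.02. These are counts over genes that share the same 8 libraries, and a motif match is not a bound site.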
